A study of Saccharomyces cerevisiae with 44 samples.

Results

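The late charging window of the fast yeast metabolic cycle was compared with the early one in 12 of the 44 libraries of the series. The late window held time points 5, 6, 7, 15, 16 and 17, and the early window time points 2, 3, 4, 12, 13 and 14, so that each window had 6 libraries, 3 from each of 2 successive cycles. Every library is poly(A) RNA from strain CEN.PK122 of Saccharomyces cerevisiae, the budding yeast, grown as a glucose-fed continuous culture (1% glucose, 30 °C, pH 3.4). Fast cycling cultures were diluted at 0.12 to 0.13 per hour and sampled every 13 min, and slow cycling ones at 0.045 to 0.05 per hour and sampled every 36 min. The strain, medium, temperature and pH were shared by all groups. No replicate cultures are named in the labels. The libraries of a window are therefore time points of 1 culture, and every p-value here reflects their spread, which is not a spread between cultures.

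In such cultures cells alternate between bursts of oxygen uptake, when genes for making ribosomes and amino acids are read, and long stretches of low oxygen uptake. The stretch after the burst is known as the building phase, with mitochondrial genes and histones, and the next as the charging phase, with genes for fatty acid breakdown, storage carbohydrates and stress protection, which ends at the next burst. Splitting the charging phase asks whether its transcripts stay level or move from one programme to the next before the burst begins. The windows were chosen by the RPKM courses of these same libraries, with the phase of the cycle in view. The calls between them therefore describe how large a difference was against the spread between libraries, and they are no independent evidence; the slow libraries were not used to choose the fast windows.

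The windows were checked with 3 genes commonly used to mark the phases. POT1, the peroxisomal thiolase of fatty acid breakdown and the charging marker, stood at 420.1, 536 and 628 RPKM (reads per kilobase of gene and per M reads of the library; lowest, median and highest of the early libraries) and at 291, 466 and 517 RPKM in the late libraries. Just outside the windows it stood at 179 and 28.1 RPKM (time points 1 and 11) and at 67 and 27.6 RPKM (time points 8 and 18). All 12 libraries lay above these values. The lowest of the 12, 291 RPKM at time point 17, lay below the POT1 plateau of the others. MRPL10, a mitochondrial ribosomal protein that marks the building phase, was at 91.6, 129 and 272.7 RPKM early and 79.4, 83.2 and 91.1 RPKM late: time points 2 and 12 still held 243 and 272.7 RPKM, so the early window began while this marker was high. RPL17B, a cytosolic ribosomal protein that marks the burst, was at 49.8, 74.3 and 161 RPKM early and 147, 173 and 390.3 RPKM late, against 641 and 622 RPKM at time points 8 and 18. ACT1, the actin gene, gave 759.8, 839 and 905 RPKM early and 732, 785 and 844 RPKM late. Its late minus early difference of -0.08 (log2) did not pass the test on these unscaled values.

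One library stood apart. Time point 17, the last of the late window, resembled the burst: RPL17B was at 390.3 RPKM there against 210.4 RPKM at the matching time point 7, and POT1 at 291 against 469 RPKM. Results are therefore given with and without time point 17. Depth in the 12 libraries was 9.20 to 19.67 M reads, highest at time point 6, and 1 read of a 1 kb gene was worth 0.0508 to 0.109 RPKM. The added control RNAs took 0.433 to 1.48% of the early and 0.462 to 1.60% of the late libraries. An RPKM value is a share of a library, so it cannot give RNA per cell, and in these bulk samples fewer cells with a transcript and less of it per cell cannot be told apart.

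Between the windows, 573 genes (9.85%) of the 5820 tested were higher late and 79 (1.36%) were lower. A gene was called at a Benjamini-Hochberg adjusted p (q) under 0.05 and at least 2-fold, with limma on log2(RPKM + 1), a scale that understates the change of genes with low values. The 6 late libraries were all above the 6 early ones for 1457 genes (25.0%), called or not, and all below for 259 (4.45%). At q under 0.05 and any size, 2541 (43.7%) were higher and 602 (10.3%) were lower. Without time point 17, the called genes were 389 (6.68%) and 51 (0.876%). In the first cycle by itself, 205 were higher and 32 lower; in the second, which holds time point 17, limma called 0, with 1967 genes at an unadjusted p under 0.05.

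The median of all genes was 0.21 (log2) higher late, and changes are best read against that shift. Scaling by median-of-ratios factors took it to -0.00 and gave 377 genes higher and 189 lower, so 66.6% of the calls were upward in place of 87.9%. Scaling to the control RNAs took it to -0.12 and gave 217 and 103. For ACT1, median-of-ratios scaling gave -0.31 (q = 0.0143 by limma), under 2-fold. Of the 57 called genes that the naming rule picked, 52 passed with median-of-ratios scaling and 39 with control scaling.

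**Figure D1:**
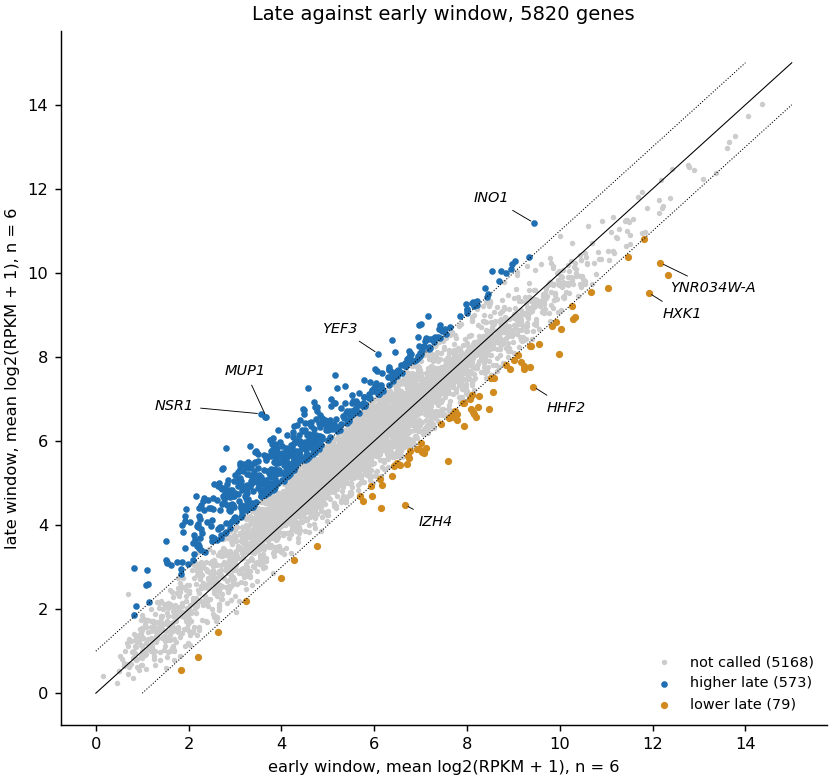
Mean log2(RPKM + 1) of each tested gene in the late window (y axis, n = 6) against the early window (x axis, n = 6). The solid line marks equal values, the dotted lines 2-fold, blue points the 573 genes called higher and orange points the 79 called lower. Most of the genes called higher had low early values. Among the labelled genes, INO1 had the highest early level of those called higher, and YNR034W-A of those called lower.

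Genes for making ribosomes rose almost as a body. Of 97 ribosome biogenesis genes, 93 rose (95.9%, against 9.85% of all genes) and 0 fell. The list median was 1.87 (log2) beside 0.21 over all genes. Without time point 17, 89 rose and the median was 1.54. The 4 that missed the call were NOP10 (0.77), SPB4 (0.99), TIF6 (0.70) and ESF1, which was lower late (-0.60, q = 0.00228 by limma); they were named after their values were seen.

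NSR1, a nucleolar protein of pre-rRNA processing, had the largest rise of all genes that the rule named. It stood at 7.07, 8.14 and 23.6 RPKM in the early libraries (lowest, median, highest) and 38.6, 59.7 and 949.6 RPKM in the late ones. The windows did not overlap, but the highest late value was that of time point 17, with 183 RPKM at time point 7. The difference was 3.09 ± 0.70 (log2 ± SE, q = 0.00431 by limma), or 2.44 without time point 17. MAK16, needed for the large ribosomal subunit, stood at 3.69, 7.75 and 26.4 RPKM early and 31, 38.3 and 269 RPKM late, a difference of 2.55 ± 0.58. Its late libraries other than 7 and 17 lay between 31 and 42.4 RPKM, close together and above every early library.

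SSF1, another large-subunit maturation factor with a close paralog, rose by 2.61, DBP2, a DEAD-box RNA helicase, by 2.53, and NOP14, a small-subunit factor chosen after its values were seen, by 2.44. AAH1, the adenine deaminase, went from 3.87, 5.95 and 10.5 to 20.5, 34.8 and 587 RPKM, a rise of 3.02 ± 0.70. URA7, a CTP synthase, rose by 2.61 and TRM11, a tRNA methyltransferase subunit, by 2.44; URA7 shares 84 bases with a small gene on the same strand, so part of its reads could belong to that gene. NSR1 shares 584 bases with a gene on the opposite strand, and the counting was by strand.

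Of 20 subunits of RNA polymerases I and III, the enzymes that make ribosomal, 5S and transfer RNA, 17 rose (85%, against 9.85% of all genes). The list median was 1.40, and 13 rose without time point 17 (65%, against 6.68% of all genes). RPA49 stood at 6.54, 9.96 and 30.2 RPKM early and 36.8, 46.5 and 257 RPKM late (2.26 ± 0.50), and RPA43 rose by 2.07. Of 138 cytosolic ribosomal protein genes, 72 rose (52.2%, against 9.85% of all genes) and 0 fell. The list median was 1.01, at the fold threshold. The count of 72 rested on time point 17. Without that library 17 rose (12.3%, against 6.68% of all genes), and with median-of-ratios scaling 16 rose. The list median without time point 17 was 0.82, under 2-fold, beside 0.22 over all genes. With all 12 libraries, 128 (92.8%) were higher at q under 0.05 and any size, against 43.7% of all genes. RPS26B was at 74.3, 120.0 and 224 RPKM early and 238, 281 and 1021 RPKM late (1.52 ± 0.38), and RPL31B rose by 1.45. Many ribosomal protein genes are near-identical pairs, and how reads matching both were counted is not given, so the values of single paralogs are uncertain.

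The order of the steps shows in the list medians. Ribosome biogenesis genes had a median of 6.88, 12 and 21.4 RPKM at time points 2, 3 and 4, then 28.1, 30.3 and 56.5 at 5, 6 and 7, and 180.4 RPKM at 8. In the next cycle they stood at 8.63, 8.56 and 18.1 RPKM, then at 25.2, 33.2 and 141, and at 122 RPKM at time point 18. The median was thus lowest at the start of the charging phase, had climbed before time point 5, changed little between 5 and 6, and jumped at 8 in the first cycle and 1 sample earlier in the second. Cytosolic ribosomal proteins had a median of 172 RPKM at time point 4 and 145 at 6, then 623 at 8.

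**Figure D2:**
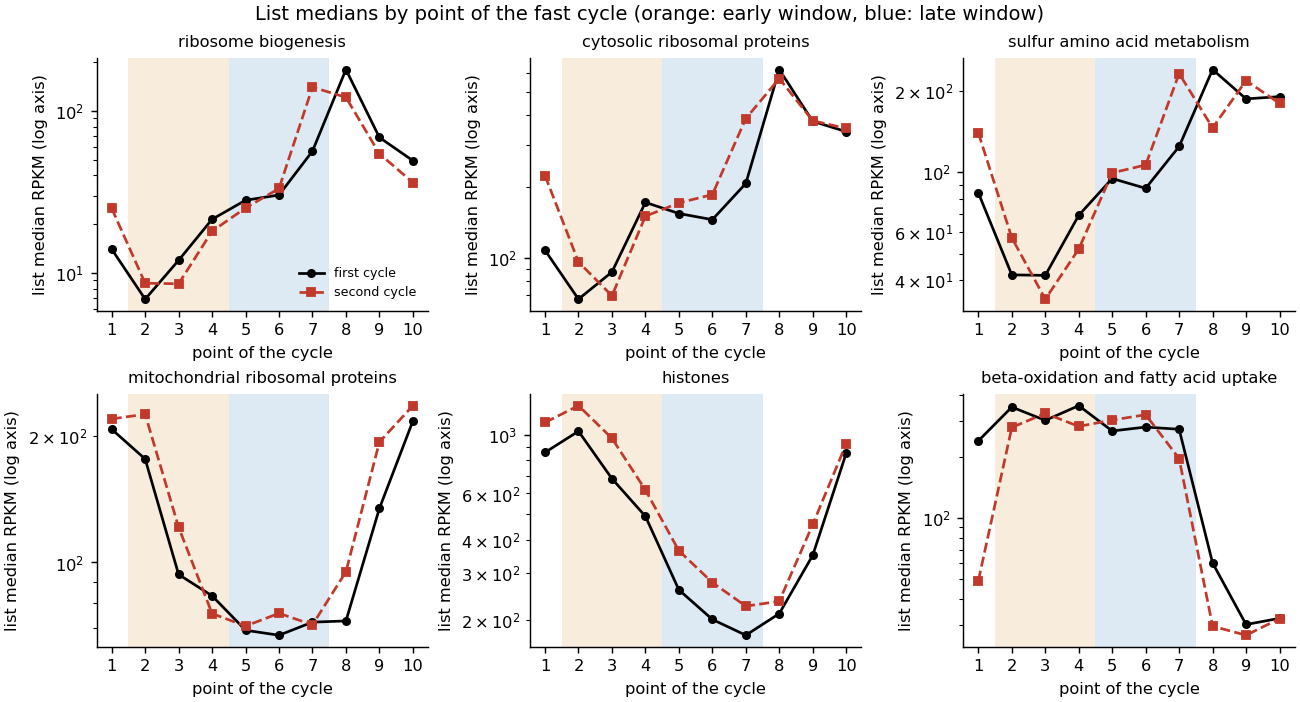
Median RPKM of 6 gene lists (y axes, log scale) at the 10 points of the fast cycle (x axes), with the first cycle in black and the second in red. Orange bands mark the early and blue bands the late window; at point 7 the second cycle (time point 17) lies above the first for ribosome biogenesis genes (141 against 56.5 RPKM).

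In the mean of both cycles, most genes called higher peaked after the late window. Of the 573, 555 (96.9%) were higher still at cycle point 8, outside the windows, than in the late window, against 54.5% of all genes tested, and 484 peaked there in the mean of both cycles. The cycles differed. In the first, 4.01% of the genes called higher were higher at time point 7 than at 8, against 52.9% of all genes tested. In the second, 56.5% were already higher at time point 17, inside the late window, than at 18, against 45.9% of all genes tested.

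Promoters were read for 5584 genes from the R64 reference (sacCer3 coordinates), 250 bases before to 50 bases after the start codon, and searched on both strands, with overlapping copies counted. PAC (GATGAG) and RRPE (AAAATTTT) are short elements known upstream of ribosome biogenesis genes. Of 561 promoters of genes called higher, 305 (54.4%) held GATGAG, as did 13 of 73 (17.8%) of those called lower and 19.8% of all promoters. AAAATTTT was in 38.5%, 8.22% and 9.37%. Both stood together in 168 promoters (29.9%) of the genes called higher and in 72 of the 97 (74.2%) on the ribosome biogenesis list, against 4.66% of all promoters and 1.37% of those of genes called lower. A match is only a run of letters in this window. The next promoters are shown because their genes had some of the largest rises and carry both elements, which are in capitals (CTCATC is GATGAG on the other strand); each is read on the coding strand of its gene.
NSR1 (chrVII:807607-807906, minus strand): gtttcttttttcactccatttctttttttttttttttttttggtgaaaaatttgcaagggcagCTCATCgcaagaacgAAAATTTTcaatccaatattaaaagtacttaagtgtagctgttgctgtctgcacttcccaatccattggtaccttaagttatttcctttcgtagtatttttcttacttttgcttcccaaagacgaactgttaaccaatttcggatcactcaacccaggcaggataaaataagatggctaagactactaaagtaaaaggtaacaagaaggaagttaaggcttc
MAK16 (chrI:101096-101395, minus strand): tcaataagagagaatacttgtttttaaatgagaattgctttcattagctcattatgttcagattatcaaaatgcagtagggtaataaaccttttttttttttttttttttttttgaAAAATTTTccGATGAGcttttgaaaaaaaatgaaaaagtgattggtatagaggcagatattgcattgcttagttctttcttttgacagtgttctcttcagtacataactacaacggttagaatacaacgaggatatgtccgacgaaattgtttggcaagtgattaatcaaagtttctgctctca
In NSR1 the elements start 187 (PAC) and 172 (RRPE) bases before the start codon, and in MAK16 124 and 134 bases before it. The MUP1 window holds neither.

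Sulfur amino acid genes rose with the ribosome genes. Of 34, 22 rose (64.7%, against 9.85% of all genes) and 0 fell (median 1.38). Without time point 17, 21 rose (61.8%, against 6.68% of all genes). MUP1, the high-affinity methionine permease, stood at 6.21, 12.5 and 24 RPKM early and 49, 63.7 and 578 RPKM late. Its windows did not overlap (2.89 ± 0.56, q = 0.00271 by limma; 2.37 without time point 17). SAM1, an S-adenosylmethionine synthetase with a close paralog, was at 9.01, 20.1 and 53.5 RPKM early and 55.5, 72.5 and 643 RPKM late (2.30 ± 0.58). Enzymes of sulfate assimilation rose too, among them MET3 (1.67), MET14 (1.59), MET16 (1.68) and MET10 (1.43), with the sulfate permease SUL2 (1.86) and the regulator MET32 (1.69).

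Of 57 genes for other amino acids, 20 rose (35.1%, against 9.85% of all genes) and 0 fell. Without time point 17, 9 rose (15.8%, against 6.68% of all genes). Lysine synthesis gave several: LYS4, the homoaconitase, stood at 19.3, 33.5 and 51.1 RPKM early and 72.7, 92.6 and 322 RPKM late (1.75 ± 0.37), LYS20, the homocitrate synthase, rose by 1.53, and LYS9 by 1.39. Of 25 amino acid and ammonium permeases, 9 rose (36%), and 7 (28%) without time point 17. MEP2, the high-affinity ammonium permease, ranged widely, at 56.7, 120.2 and 559.0 RPKM early and 206, 434 and 1667 RPKM late (1.82 ± 0.61); time point 12 overlapped the late window. GAP1, the general amino acid permease, chosen after its values were seen, stood at 189 RPKM in its lowest early library and 465 RPKM at time point 12, and at 546.1, 736 and 1257 RPKM late (1.24 ± 0.25), with no overlap.

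Translation factors (7 of 35 rose) and aminoacyl-tRNA synthetases (5 of 20) moved mostly by less than 2-fold. Those are 20% and 25% of the lists, against 9.85% of all genes. Without time point 17 the counts were 3 and 2 (8.57% and 10%), near the 6.68% of all genes. At q under 0.05 and any size, 32 of 35 (91.4%) and 20 of 20 (100%) were higher, against 43.7% of all genes. YEF3, translation elongation factor 3, was at 43.3, 69.1 and 103.8 RPKM early and 163, 199 and 1045 RPKM late (2.00 ± 0.41). TIF4631, the scaffold initiation factor eIF4G, rose by 1.41, the lysyl-tRNA synthetase KRS1 by 1.71 and the prolyl-tRNA synthetase YHR020W by 1.38. SSB1 and SSB2, chaperones bound to translating ribosomes and near-identical to each other, rose by 1.49 and 1.25.

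**Figure D3:**
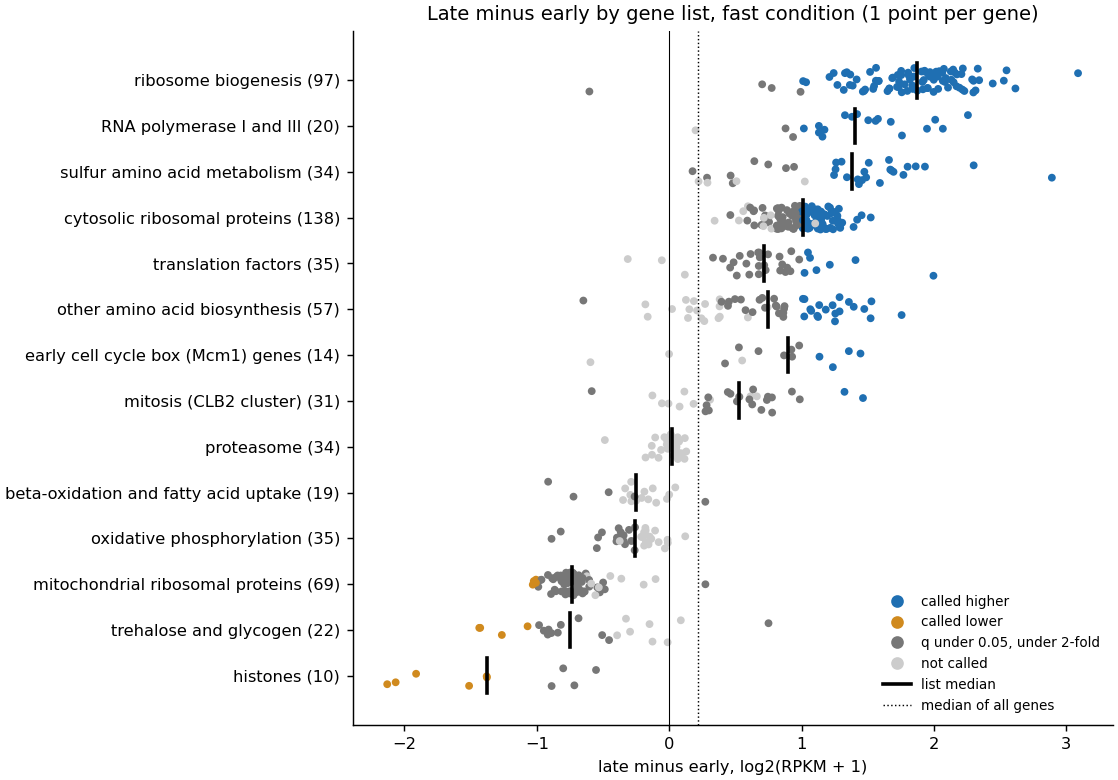
Late minus early difference (x axis, log2(RPKM + 1)) of each tested member of 14 gene lists, 1 point per gene, with the number tested in parentheses. Thick bars are list medians, the dotted line is the median of all genes (0.21), blue points were called higher, orange points called lower, and dark grey points passed q under 0.05 but not 2-fold; ribosome biogenesis (median 1.87) and histones (-1.38) lie at the ends.

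Core histone genes fell from the early to the late window. Of 10 histone genes, 6 fell by at least 2-fold (60%, against 1.36% of all genes), and 6 fell without time point 17. All 10 were lower at q under 0.05, against 10.3% of all genes, with a median of -1.38. HHF2, a histone H4 gene, stood at 363, 719 and 1226 RPKM early and 108.0, 158 and 245 RPKM late, with no overlap (-2.13 ± 0.30, q = 0.00157 by limma). It went from 974.9 RPKM at time point 2 through 363 at 4 to 108.0 at 7, and from 1226 through 493 to 122 RPKM in the next cycle, and it was lower at each successive sample through both windows. HTA2 (-2.07) and HTB2 (-1.91), a divergent pair for H2A and H2B, fell too. The other H2A and H2B pair, HTA1 (-0.89) and HTB1 (-0.80), was lower at q under 0.05 but did not reach 2-fold. Histone genes are sequence-related copies, so the split between copies is uncertain.

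HXK1, the hexokinase isozyme of poor carbon sources, had the largest fall by the naming rule. It was at 1867, 4621 and 5761 RPKM early and 337, 789 and 1146 RPKM late, with no overlap (-2.38 ± 0.34, q = 0.00157 by limma; -2.16 without time point 17). A small annotated gene on the same strand covers part of it, so some of its reads could belong there. Among 21 glycolysis and fermentation genes, GLK1 (-1.14), the glucokinase, and TDH1 (-1.10) also fell, while the hexokinase HXK2 rose (1.03), and so did PDC6 (1.19), a minor pyruvate decarboxylase. Without time point 17, GLK1 (-0.92), HXK2 (0.87) and PDC6 (0.85) were under 2-fold, and none of the list was called higher. SUC2, the invertase, fell from 161, 315 and 419.8 to 77.7, 96 and 139.5 RPKM (-1.51 ± 0.22).

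Several storage carbohydrate genes were lower late. Of 22 trehalose and glycogen genes, 4 fell (18.2%, against 1.36% of all genes) and 14 were lower at q under 0.05 (63.6%, against 10.3%; median -0.75); 3 fell without time point 17 and 11 with median-of-ratios scaling. TSL1, a subunit of the trehalose synthase complex, was at 204, 324.3 and 417 RPKM early and 29.9, 147 and 182.1 RPKM late (-1.43 ± 0.39; -1.06 without time point 17). PGM2, the main phosphoglucomutase, was at 326, 681 and 934 RPKM early and 94.1, 263 and 302 RPKM late (-1.43 ± 0.32). A gene of each direction of glycogen metabolism fell. The synthase GSY1 fell by 1.07 (log2), with -0.86 without time point 17. The phosphorylase GPH1 fell by 1.26 (log2), with -1.07 without time point 17. Its windows overlapped, with a lowest early value of 269.8 RPKM and a highest late value of 326.2 RPKM. GPH1 shares 81 bases with a small gene on its strand.

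The stress response element, CCCCT on either strand, was in 28 of 73 promoters (38.4%) of genes called lower, in 10.9% of those called higher and in 10 of 22 (45.5%) of the trehalose and glycogen list, against 22.0% of all promoters. The promoters of TSL1 and PGM2 are shown because these had the largest falls of that list; capitals mark the element, read here as AGGGG on the coding strand.
TSL1 (chrXIII:70374-70673, plus strand): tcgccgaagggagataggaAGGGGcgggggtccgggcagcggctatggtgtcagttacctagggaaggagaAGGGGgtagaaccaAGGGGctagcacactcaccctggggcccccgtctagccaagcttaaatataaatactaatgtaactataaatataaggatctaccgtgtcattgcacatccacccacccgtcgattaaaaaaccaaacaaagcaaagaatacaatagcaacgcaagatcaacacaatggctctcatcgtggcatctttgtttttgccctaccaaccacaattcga
PGM2 (chrXIII:477557-477856, minus strand): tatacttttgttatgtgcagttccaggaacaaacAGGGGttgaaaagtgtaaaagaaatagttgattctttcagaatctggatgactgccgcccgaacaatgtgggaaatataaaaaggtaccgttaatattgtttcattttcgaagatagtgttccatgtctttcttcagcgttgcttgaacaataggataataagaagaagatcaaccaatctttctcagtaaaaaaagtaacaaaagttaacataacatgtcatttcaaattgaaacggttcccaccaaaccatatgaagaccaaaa
TSL1 holds 3 copies, which start 231, 179 and 165 bases before the start codon, and PGM2 holds 1 copy. The windows of HXK1 and HHF2, with larger falls, hold none of these letters.

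Mitochondrial ribosomal protein genes were lower late, mostly by less than 2-fold. Of 69 mitochondrial ribosomal protein genes, 4 fell by 2-fold (5.8%, against 1.36% of all genes) and 59 were lower at q under 0.05 (85.5%, against 10.3%; median -0.74); with median-of-ratios scaling 27 passed 2-fold. MRPL49 was at 62.6, 94.4 and 240.4 RPKM early and 50.6, 52.1 and 57.3 RPKM late (-1.03 ± 0.28). The list median was 176, 93.6 and 83.3 RPKM at time points 2, 3 and 4 and 69, 67.1 and 72.1 at 5, 6 and 7, so the decline had nearly ended when the late window began. The mitochondrial chaperones HSP60 (760.3, 1425 and 1742 RPKM early, 298, 505 and 627 RPKM late, -1.39 ± 0.24), HSP10 (-1.07; under 2-fold without time point 17) and SSC1 (-1.25) fell, with the import proteins MIA40 (-1.08) and TOM6 (-1.02), which were -0.94 and -0.99 and no longer 2-fold without time point 17. Of 35 respiratory chain and ATP synthase genes none was called, and 16 (45.7%) were lower at q under 0.05.

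Other large falls had no list in common. IZH4, a membrane protein linked to zinc, was at 69.5, 95.7 and 155 RPKM early and 8.79, 20.8 and 51.7 RPKM late (-2.18 ± 0.38). NRD1, an RNA-binding factor of transcription termination, was at 202, 302 and 419.8 RPKM early and 44.2, 108.4 and 157 RPKM late (-1.62 ± 0.30), and HRP1, a factor of messenger RNA 3′ end formation chosen after its values were seen, fell by 1.70 (log2). SRY1, a 3-hydroxyaspartate dehydratase, gave -1.74. OLE1, the fatty acid desaturase, was at 1443, 2260.2 and 2604 RPKM early and 483, 761 and 1495 RPKM late (-1.39 ± 0.27), with overlap between the windows at the edges.

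**Figure D4:**
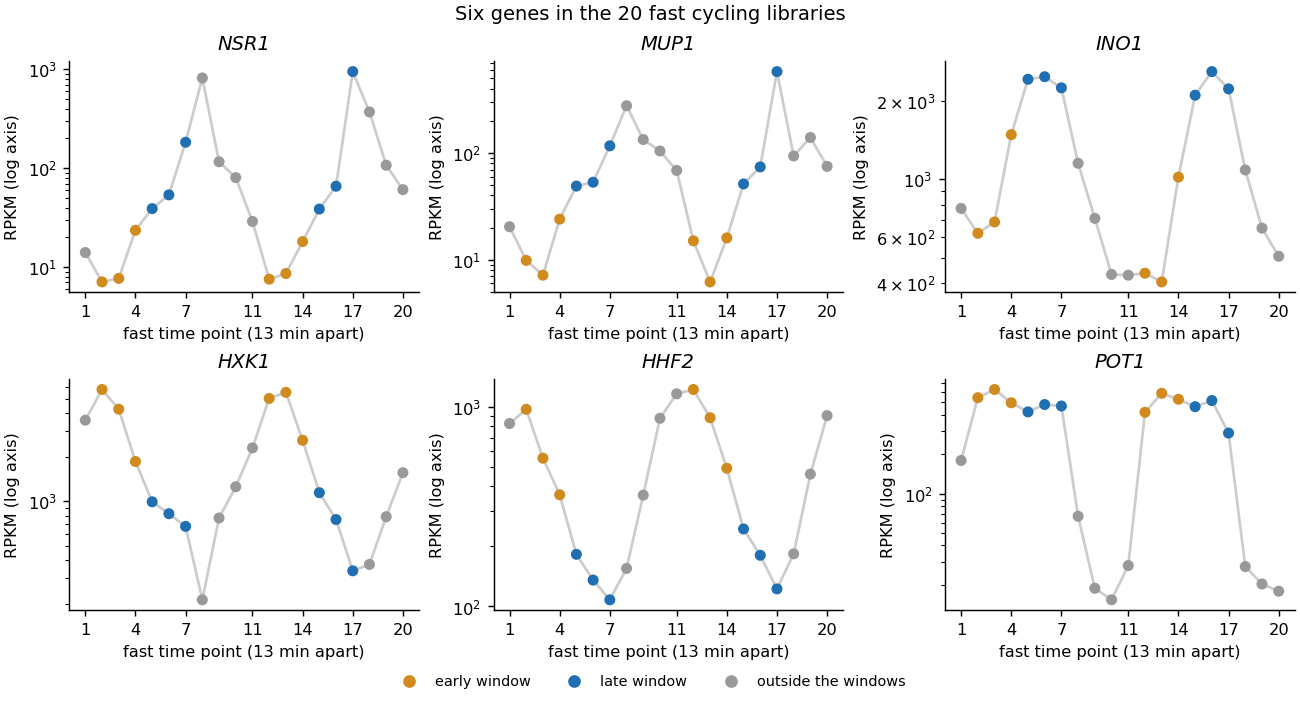
RPKM of 6 genes (y axes, log scale) in the 20 fast libraries (x axes), 1 point per library, with the early window in orange, the late window in blue and other time points in grey. NSR1 and MUP1 climb towards the burst, INO1 is high throughout the late window (lowest 2100.4 RPKM), HXK1 and HHF2 descend, and POT1 stays high until time point 7 (469 RPKM) and 16 (517 RPKM).

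Genes for fatty acid breakdown, which mark the charging phase, were not called between its windows, although their median lay below that of all genes. None of 19 beta-oxidation and fatty acid uptake genes was called (median -0.25; -0.08 without time point 17), and 4 (21.1%) were lower at q under 0.05, against 10.3% of all genes. Relative to the median of all genes, the list lay at -0.47 (log2). FOX2, the peroxisomal multifunctional enzyme, gave 639.9, 807 and 1015 RPKM early and 369, 684.5 and 785 RPKM late (-0.35 ± 0.18, q = 0.125 by limma). With median-of-ratios scaling 1 of the 19 was called lower, and with control scaling 0. In the median-of-ratios fit FOX2 gave -0.58 (q = 0.0313 by limma) and POT1 -0.52 (q = 0.0171 by limma), both under 2-fold. None of 27 peroxins was called either, nor any of 12 glyoxylate cycle and gluconeogenesis genes, 34 proteasome, 31 autophagy or 24 antioxidant genes. At q under 0.05, 9 of the antioxidant genes (37.5%) and 8 of 14 ethanol and acetate genes (57.1%) were lower late. Of 14 ethanol and acetate genes, the aldehyde dehydrogenases ALD3 fell (-1.24 ± 0.29) and ALD5 rose (1.09 ± 0.35; 0.76 without time point 17), and ADH2, the alcohol dehydrogenase that consumes ethanol, was at 3447, 5059 and 5862 RPKM early and 1571, 3377 and 4375 RPKM late (-0.64 ± 0.23), under 2-fold. A miss of the threshold does not show that these genes stayed level.

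A minority of the genes called higher peaked inside the late window in the mean of both cycles. That mean does not describe the second cycle, where 56.5% of the genes called higher stood higher at time point 17 than at 18. Of the 573, 65 (11.3%) had their highest mean at points 5 to 7, less than the 20.1% of all genes tested, and 59 of the 65 did so at point 7. At points 5 and 6 were YMR030W-A, GRE1, HEF3, INO1, SHC1 and YNL058C; of these, those that the rule did not pick were named after their values were seen. INO1, the inositol phosphate synthase that starts inositol synthesis, was at 404, 653 and 1483 RPKM early and 2100.4, 2329 and 2586 RPKM late, a nearly level late plateau with no overlap (1.74 ± 0.27, q = 0.00167 by limma). It had reached 1483 and 1019 RPKM at time points 4 and 14 and was down to 1151 and 1086 RPKM at 8 and 18. HEF3, a paralog of YEF3 with uncertain counts for that reason, was at 35.7, 56.5 and 76 RPKM early and 87.2, 133 and 183 RPKM late and 21 RPKM at time point 8. SHC1, an activator of chitin synthase, was at 7.7, 12.4 and 19.7 RPKM early and 25.3, 30.7 and 34 RPKM late (1.19 ± 0.18), and GRE1, a hydrophilin of dry and osmotic stress, gave 1.24 ± 0.40. None of the 4 lost its call without time point 17.

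The cell cycle lists differed in the share called higher, which was 9.85% over all genes. None of 38 Start and S phase genes or 37 spindle and kinetochore genes was called. Of 14 genes with an early cell cycle box, read between mitosis and G1, 4 rose (28.6%): MCM7 (16.4, 24.5 and 40.9 RPKM early, 47.8, 65.7 and 70.4 RPKM late, 1.36 ± 0.21), MCM3 (1.24) and MCM5 (1.13), subunits of the replicative helicase, and FAR1 (1.44), an inhibitor of G1 cyclin kinase. Of 31 genes of the CLB2 mitotic cluster, KIN3 (1.46), a mitotic kinase, and AIM44 (1.32), a bud neck protein, rose (6.45% of the list), and 20 (64.5%) were higher at q under 0.05, against 43.7% of all genes. AIM44 rose mostly in the first cycle, from 13.1 to 17.6 RPKM early to 51.7 to 91.7 RPKM late. In the second its windows overlapped, at 17.6 to 25.6 RPKM early and 21.5 to 42.5 RPKM late. CLB2 itself, the main mitotic cyclin, was at 10.8, 19.8 and 29.9 RPKM early and 21.9, 31.3 and 37.2 RPKM late (0.61). Of 18 daughter separation genes, ASH1 rose by 1.26 and PCL9 by 1.03 (11.1% of the list). Without time point 17 PCL9 kept that difference (1.03) but had q = 0.0672 by limma. In the second cycle the windows of both overlapped. ASH1 was at 66.8 to 98.9 RPKM early and 76.0 to 150.9 RPKM late there. PCL9 was at 33.3 to 72.6 RPKM early and 27.9 to 73.6 RPKM late, a difference of -0.12.

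The same comparison was made in the slow libraries, which had no part in choosing the fast windows. Slow windows were set at the same share of a cycle before the slow ribosomal peak, so that course placed them and a rise of ribosome genes towards the peak is in part fixed by the choice: time points 5 to 7 and 17 to 19 early, and 9 to 11 and 21 to 23 late. Changes were smaller there: 18 genes (0.309%) were called higher and 20 (0.344%) lower, and 1826 (31.4%) and 206 (3.54%) at any size. Of the 573 genes higher in the fast late window, 88.0% were also higher at q under 0.05 in the slow one, against 31.4% of all genes, and their slow median was 0.42 (log2) beside a fast median of 1.37. Without time point 17 it was 346 of 389 (88.9%), and with median-of-ratios scaling of both conditions 293 of 377 (77.7%), where 11.8% of all genes were higher. The 573 were picked for a fast change of at least 2-fold, so the gap between the fast and slow medians is in part fixed by the choice. NSR1 was at 31.7, 38.9 and 63.5 RPKM in the slow early and 64.7, 95.5 and 179 RPKM in the slow late libraries (1.33 ± 0.22, q = 0.00168 by limma), and MUP1 rose by 1.05 there. The difference between conditions did not pass for NSR1 (q = 0.0873 by the limma interaction test) and passed for MUP1 (q = 0.0309 by the same test).

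Of the 79 genes that fell in the fast condition, 21 (26.6%) were lower at q under 0.05 in the slow libraries, against 3.54% of all genes, and 11 (13.9%) were higher, against 31.4%. Of the 51 that fell without time point 17, 9 (17.6%) were lower in the slow libraries and 11 (21.6%) were higher. The slow median was -0.0015 (log2) for the 79 and 0.04 for the 51, beside 0.12 over all genes. With median-of-ratios scaling of both conditions 54 of 189 (28.6%) were lower, against 10.3% of all genes. HXK1 was at 903, 1028 and 1082 RPKM slow early and 946, 987 and 1088 RPKM slow late, overlapping and with a difference of -0.02, and HHF2 at 74.5, 84.6 and 97.1 and 80.3, 89 and 102 RPKM. For HHF2, both slow windows lay below the lowest fast library (108.0 RPKM).

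The difference between the conditions was tested itself, as an interaction over the 24 libraries. The late minus early change was higher in the fast condition for 238 genes (4.09%) and lower for 113 (1.94%), and 205 of the 573 and 54 of the 79 were among them. The 573 and the 79 were picked by their change in these same fast libraries. That overlap is therefore in large part fixed by the choice and is no independent evidence. Without time point 17 the counts were 151 and 100, and with control scaling 44 and 124. The largest called difference upward among the fast calls was INO1, at 167, 341 and 749 RPKM in the slow early and 109.6, 117.1 and 138 RPKM in the slow late window: it fell there (-1.55) and rose in the fast condition (1.74), a difference of 3.30 ± 0.45 (q = 0.000261 by limma). OLE1 moved the other way, with -1.39 in the fast condition and 0.82 under slow feeding (difference -2.21). Among the genes called in the fast condition, IZH4 (-2.84), HTB2 (-2.55) and HTA2 (-2.49) had the largest differences downward by the naming rule.

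Daughter separation genes gave the widest gap between conditions. Of 18, 11 fell in the slow late window (0.344% of all genes) and 15 had a called difference (4.09% of all genes). DSE4, a glucanase that parts daughter from mother, chosen after its values were seen, was at 36.7, 80.7 and 183 RPKM slow early and 8.26, 10.2 and 13.6 RPKM slow late (-2.80 ± 0.35); in the fast windows it was at 23.2, 29.7 and 55.5 and 24.4, 64.3 and 121 RPKM, with overlap (0.79 ± 0.39, q = 0.103 by limma). In the slow condition it peaked at 171 and 183 RPKM, at the first sample of the early windows. Its fast course put 121 RPKM at time point 7 and 96.1 RPKM at 17, the highest late values of each cycle. EGT2, CTS1, SCW11 and DSE1, which act in the same step, fell in the slow condition (log2 differences of -2.80, -2.24, -2.01 and -2.33) and did not pass in the fast one, where each of the 4, and DSE4, changed sign in at least 1 setting.

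**Figure D5:**
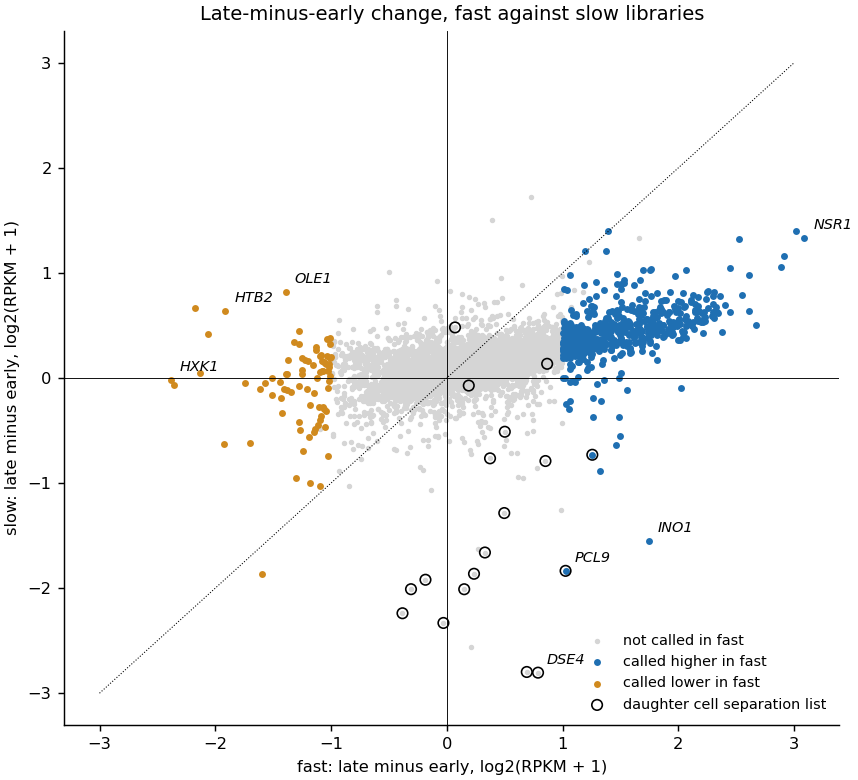
Late minus early difference in the slow condition (y axis) against the fast condition (x axis), both log2(RPKM + 1), 1 point per gene. Blue genes were called higher and orange genes lower in the fast condition, rings are the 18 daughter separation genes and the dotted line marks equal change; most blue points lie above 0 on the y axis (slow median 0.42), while INO1, PCL9 and most rings lie below it.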

How the data were processed

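The 12 fast libraries of the windows and 12 slow libraries were analysed. The authors deposited a table of RPKM values (sense-strand reads per kilobase of gene body, and M reads) counted with HOMER on an SGD annotation of sacCer3, per the file headers, and the gene length in bases. FastQC 0.10.1 and TopHat2 2.0.10 were used, per the submitters' processing notes. The treatment of reads with several matches, and which of the 4 RNA extraction groups each sample had, are not stated; a part of the extraction group in a result was not tested. Low RPKM values were whole multiples of 1 read (tolerance 0.1) in 100.0% of values checked in each library, which gave the depth.

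The 92 control rows were left out, and 5820 of 6692 yeast rows, those whose mean in the 44 libraries reached 1 RPKM, entered limma 3.58.1 under R 4.3.3 as log2(RPKM + 1), with a variance trend and Benjamini-Hochberg adjustment over all of them. The script was tested on simulated data. The windows, gene lists and tests were chosen with earlier results of these data known. Named genes were the 8 largest called rises and 8 largest falls with a symbol and no overlap between windows, the 2 largest called members of each list, the 3 largest called differences between conditions in each direction among genes called in the fast condition, and 4 markers; others are said to be chosen after their values were seen. One gene that the rule named is not reported here. Alternatives covered pseudocount, filter, scaling, window edges, cycles, cycle as a replicate block and each library left out. Coordinates are those of sacCer3; 6000 of 6008 rows matched the reference gene bounds. Python 3.11.15, numpy 2.4.6, pandas 2.3.3 and matplotlib 3.10.9 were used.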

Additional observations from a re-analysis of the deposited data

Results flagged for a closer look

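Time point 17 lay far from the other late libraries for 21 of the 83 named genes. Its RPKM was 578 for MUP1, 19.2 for ALD3, 294 for ALD5, 94.1 for PGM2, 598.0 for SSB1, 98.4 for UTR2, 209 for SPI1, 1045 for YEF3, 173 for TIF4631, 129.96 for KRS1, 142.7 for YHR020W, 643 for SAM1, 762 for ERG11, 110.1 for MIA40, 81.2 for MRPL23, 291 for POT1, 390.3 for RPL17B, 121 for GPH1, 369 for FOX2, 158 for TPS1 and 3649.5 for HSP12. Time point 15 stood apart for KIN3 (43.7 RPKM) and MCM7 (47.8 RPKM), the lowest late library of both, and time point 6 had the greatest depth of its window, 19.7 M reads. These 24 came from 170 groups of 6 fast libraries that were checked for a value beyond Dixon's limit of 0.625, and chance flags about 1 in 20 such groups.

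The late minus early change differed between the fast and the slow condition, by the limma interaction test and by at least 2-fold, for 49 of the 83 named genes, those chosen after their values were seen included. The naming rule picked genes by the fast change and by this difference, so that count is in part fixed by the choice. The difference (fast minus slow, log2) was 3.59 for DSE4, 3.49 for EGT2, 3.30 for INO1, 2.86 for PCL9, 2.30 for DSE1, 2.20 for AIM44, 2.16 for SCW11, 2.10 for KIN3, 1.99 for ASH1, 1.98 for SSF1, 1.86 for CTS1, 1.84 for MUP1, 1.82 for NOP14, 1.75 for MAK16, 1.62 for SWI5, 1.48 for SPS4, 1.47 for RPA43, 1.45 for HEF3, 1.43 for RPA49, 1.37 for MCM7, 1.33 for YEF3, 1.31 for CLB2, 1.25 for FAR1, 1.22 for NOP6, 1.11 for RPL31B, 1.05 for GAP1 and 1.02 for TIF4631. It was -2.84 for IZH4, -2.55 for HTB2, -2.49 for HTA2, -2.37 for HXK1, -2.21 for OLE1, -2.17 for HHF2, -1.70 for SRY1, -1.51 for NRD1, -1.51 for HHT1, -1.43 for HSP60, -1.42 for HHF1, -1.40 for MRPL49, -1.35 for SUC2, -1.299 for YNR034W-A, -1.26 for HHT2, -1.24 for PGM2, -1.15 for MIA40, -1.12 for SPI1, -1.12 for TOM6, -1.09 for MRPL23, -1.08 for HRP1 and -1.005 for MRPL10.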

How the results depend on the processing

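Of the 573 genes called higher in the fast late window, the count became 217 with control scaling, 377 with median-of-ratios scaling, 205 in the first cycle, 0 in the second and 297 without time points 7 and 17; leaving out 1 library gave 389 to 660. The 79 called lower became 189 with median-of-ratios scaling, 225 without the adjoining time points, 32 in the first cycle, 0 in the second and 39 without time points 7 and 17, and 51 to 112 with 1 library left out, where the loss to 51 came from time point 17. In the second cycle alone, limma had 1967 genes at an unadjusted p under 0.05. The slow counts of 18 higher and 20 lower became 10 higher with median-of-ratios scaling, and 9 higher and 46 lower with windows 1 time point earlier; leaving out 1 library gave 10 to 29 and 18 to 26, with 10, 29 and 10 higher without slow time points 11, 21 and 22. The 238 higher differences between conditions became 44 with control scaling and 151 without time point 17, and the 113 lower became 176 with median-of-ratios scaling. The cause of these moves was not tested. Cycle as a replicate block gave 569 and 79 in the fast condition, 18 and 20 in the slow one and 211 and 113 for the difference, so no count moved by over 1.5 times. Among named genes with a call, PCL9 reversed, to -0.12 in the second cycle. Uncalled genes also changed sign: DSE4 to -0.083, EGT2 to -0.41 and SCW11 to -0.55 in the second cycle, CTS1 to 0.24 and DSE1 to 0.63 in the first, SCW11 to -0.20 with control scaling, SCW11 to -0.075 with median-of-ratios scaling and -0.20 without time points 7 and 17, and DSE1 to 0.064 without the adjoining time points; with 1 library left out, SCW11 ranged from -0.028 to 0.28 and DSE1 from -0.21 to 0.10. The alternatives on the fast windows with 2 time points left out, on each library and on median-of-ratios scaling of the difference were chosen after seeing the data. Depth limits the genes near 1 RPKM, which hold few reads in every library.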

Other observations

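In other lists few members were called, beside 9.85% of all genes called higher and 1.36% lower. Of 26 ergosterol genes, 2 rose (7.69%): ERG11, the lanosterol demethylase and target of azole drugs, stood at 145, 261 and 431 RPKM early and 470.2, 537 and 762 RPKM late (1.11 ± 0.27), and ERG3, a sterol desaturase, rose by 1.03 but was under 2-fold without time point 17 (0.90). Of 22 phosphate starvation genes, PHM6 rose (1.33 ± 0.31), at 1.97, 3.88 and 5.85 RPKM early and 6.43, 9.26 and 22.8 RPKM late. Of 33 cell wall genes tested, 4 rose (12.1%), led by UTR2 (1.62), a glucan-chitin crosslinking enzyme, and SPI1 fell (-1.12); 2 rose without time point 17. Of 18 meiosis and sporulation genes, SPS4 rose (1.49 ± 0.26), at 1.42, 3.59 and 5.49 RPKM early and 6.41, 11.5 and 18.3 RPKM late.

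Of 23 hydrophilin and dormancy genes, 4 fell (17.4%) and 2 rose (8.7%); 2 fell without time point 17 and 8 with median-of-ratios scaling. YNR034W-A, among the most abundant of them, stood at 3429, 4529 and 6534 RPKM early and 464, 1325 and 2167 RPKM late with no overlap (-1.93 ± 0.31), whereas HSP12, a membrane-protecting stress protein, was at 6807, 15059 and 17322 RPKM early and 3649.5, 9422 and 11251 RPKM late and did not pass (-0.64 ± 0.31, q = 0.0955 by limma). One that rose, NOP6 (1.63), is also known as a ribosome biogenesis factor. None of 22 iron uptake genes, 17 hexose transporters and sensors or 10 vacuolar hydrolases was called, and of 22 pheromone response genes FAR1 was the single one.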
